A study of Mus musculus with 24 samples.

Results

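Embryoid bodies lacking Eed were compared with wild-type (WT) embryoid bodies on day 3 of differentiation, using the 8 arrays of that day among the 24 arrays of the series, which were taken by their titles. There were 4 Eed knockout (KO) arrays, 2 of line E14 and 2 of line J1, and 4 WT arrays, 2 of line J1 and 2 of line V6.5. RNA was read on Affymetrix Mouse Gene 1.0 ST arrays, whose probe sets lie along whole transcripts. Embryoid bodies are floating aggregates in which mouse embryonic stem cells (ESCs) begin to differentiate. Per the labels, the ESCs had been expanded with the cytokine LIF on mitomycin-inactivated embryonic fibroblasts, were depleted of these feeder cells, and were aggregated in hanging drops with serum and without LIF before they were moved to suspension culture. J1 is the only line present in both genotypes. Each line of a genotype was treated as 1 clone, so genotype and clone cannot be told apart, in J1 either, where only the line is shared. Whether the 2 arrays of a clone were separate cultures is not stated in the labels, so p-values measure only how these arrays vary, which may be technical variation.

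EED belongs to Polycomb repressive complex 2 (PRC2). This complex places methyl groups on lysine 27 of histone H3 through its catalytic subunit EZH2. EED binds the finished mark and stimulates the enzyme, and without EED the complex falls apart. In ESCs, PRC2 holds the genes of later development silent, among them Hox and other homeobox genes, while the pluripotency network is active. When LIF is withdrawn, cells pass from the naive state through a primed state like that of the postimplantation epiblast before they form germ layers.

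Eed itself was read first, as a check of the labels. Its log2 expression value was 5.76 and 6.97 in KO E14 and 6.21 and 6.42 in KO J1, against 9.60 and 9.91 in WT J1 and 10.25 and 10.36 in WT V6.5. All KO arrays lay below all WT arrays, with a difference of −3.69 (SE 0.226, limma adjusted p = 3.3e-10). Which exons were deleted is not given in the labels, so the level checks the labels only as far as the probes lie in the deleted part. Among the other 5 core PRC2 subunits none was called, with Ezh2 at 11.52 ± 0.18 in KO and 11.15 ± 0.31 in WT and Suz12 at 11.43 ± 0.24 in KO and 11.44 ± 0.23 in WT (SD, n = 4 each).

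The 2 arrays of a clone correlated at 0.990 to 0.994 over all genes on this day. The WT J1 arrays were the pair farthest apart: 138 genes were at least 2-fold apart between them, against 76 in KO E14, 27 in KO J1 and 26 in WT V6.5. Of 88 named genes called on day 3, 30 were not called without KO E14 replicate 2 and 26 not without WT J1 replicate 2. The 26 were Cldn4, Cubn, Dmrt1, Fmr1nb, Gdf3, Klf5, Lgals3, M1ap, Mest, Mir134, Mmp3, Pim1, Plagl1, Plce1, Prdm1, Slit2, Smc1b, Srgn, Tbx3, Tet2, Tfap2c, Uba1y, Ugt8a, Zfp600, Zfp640 and Zic1. The number of arrays limits the precision of every value here. The 8 Y-linked genes averaged 6.28 to 6.61 in KO arrays, 6.51 and 6.49 in WT J1, and 5.54 and 5.72 in WT V6.5. Fibroblast genes, which would mark remaining feeder cells, had a list mean of 7.79 to 7.94 in KO arrays and 7.46 to 7.62 in WT arrays, and 0 of 29 were called, with 26 differences above 0 and a median of 0.19. Thbs1, a matrix glycoprotein gene, read 8.74, 9.87, 9.17 and 8.98 in KO, against 7.92, 7.99, 7.33 and 7.77 in WT (1.44, SE 0.389, adjusted p = 0.053), and the proteoglycan gene Dcn differed by 1.10 (SE 0.558, adjusted p = 0.43), both with every KO array above every WT array. The collagen genes Col1a1, Col1a2 and Col3a1 differed by −0.02, 0.04 and 0.07, Thy1 by −0.10 and Postn by 0.19. On day 0 the 29 fibroblast genes had a median difference of 0.48, with 4 called higher in KO and 0 lower, against 0.461% of all genes higher. On day 7 their median was −0.23, with 3 called higher and 3 lower. The part of residual feeder cells in the results below was not tested.

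Over all 19938 genes, 151 differed between KO and WT embryoid bodies (0.757%), 133 of them higher in KO (0.667%) and 18 lower (0.0903%). A gene was called at a limma adjusted p under 0.05, by the Benjamini-Hochberg method over all genes, and a change of at least 2-fold, which is 1 on the log2 scale. In all, 2524 genes had an unadjusted p under 0.05. The median difference over all genes was −0.001 and 49.8% were positive. Just inside the fold threshold were Pknox2 at 1.006 and Gdf3 at 1.008, and just outside it Gask1b and Porcn, both at 0.997. Of the 151, 149 had KO and WT arrays that did not overlap. Across all genes, 6.12% had every KO array above every WT array and 4.30% had every KO array below.

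Genes of naive pluripotency, the ESC state kept by LIF, had the most members higher in KO among the 46 gene lists. Of 21 measured, 11 rose and none fell, against 0.667% of all genes higher. The median difference was 1.17, and all 21 differences were above 0. Zfp42, the ESC marker known as Rex1, read 9.88 and 10.34 in KO E14 and 9.75 and 9.88 in KO J1, against 8.48 and 6.04 in WT J1 and 8.06 and 8.24 in WT V6.5. Every KO array was above every WT array, and the low WT J1 value belongs to replicate 2. The difference was 2.26 (SE 0.406, limma adjusted p = 0.0028), or 1.66 without that array (adjusted p = 0.00032).

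Tcl1, a coactivator of the kinase Akt, read 9.71, 9.86, 8.98 and 9.90 in KO, against 7.17, 6.49, 7.68 and 8.14 in WT, and rose by 2.24 (SE 0.304). The small protein Dppa5a read 13.32, 13.30, 12.96 and 13.13 in KO, against 12.05, 11.09, 11.59 and 11.53 in WT, and rose by 1.61 (SE 0.274). Neither group overlapped the other for these 2 genes. The junction protein Jam2 rose by 2.35, the F-box gene Fbxo15 by 1.78, the orphan nuclear receptor Esrrb by 1.59, and the regulators Prdm14 and Tbx3 by 1.39 and 1.32. Zfp57, a zinc finger protein that protects imprints, rose by 1.17, the methylcytosine dioxygenase Tet2 by 1.11 and the Kruppel-like factor Klf5 by 1.06.

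The uncalled naive genes ran from Nr0b1 at 1.61 (SE 0.452, adjusted p = 0.065) and Tfcp2l1 at 1.47 (SE 0.513, adjusted p = 0.16) down to Klf2 at 0.28. In Nr0b1 the KO arrays read 11.27, 11.52, 10.99 and 11.40, against 9.54, 7.67, 10.57 and 10.97 in WT, so WT V6.5 stood close to KO and WT J1 replicate 2 far below. The mean of the 21 genes was 9.81, 10.03, 9.35 and 9.70 in the KO arrays, against 8.58, 7.79, 8.77 and 8.93 in the WT arrays, which do not overlap. Without WT J1 replicate 2, 8 naive genes were higher with a median of 1.00, beside 93 higher genes in all (0.466%). With the arrays of a clone averaged, 4 were higher, namely Zfp42, Tcl1, Dppa5a and Zfp57. Without KO E14 replicate 2, Tbx3 (adjusted p = 0.11), Esrrb (0.072), Tet2 (0.065) and Klf5 (0.052) were not called.

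**Figure D1:**
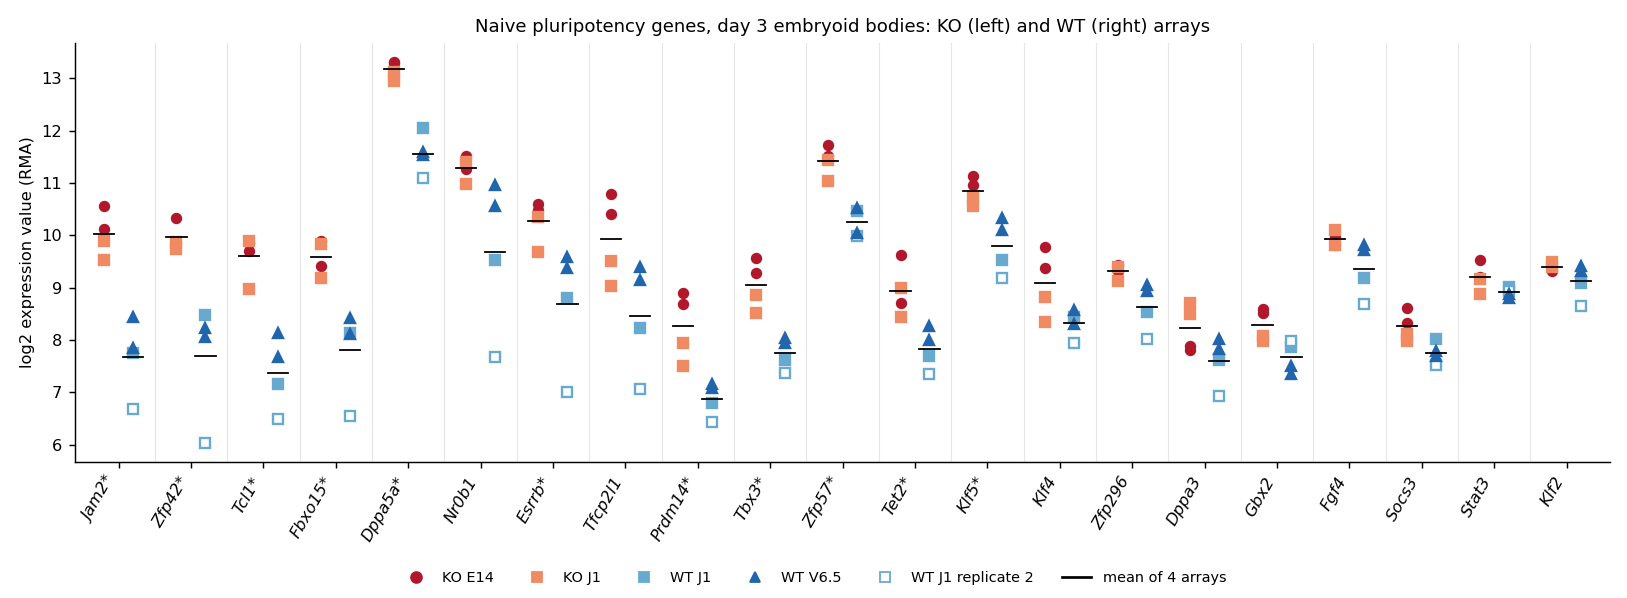
Log2 expression value (y axis) of the 21 measured naive pluripotency genes (x axis, by size of difference) in day 3 embryoid bodies, with the 4 KO arrays to the left and the 4 WT arrays to the right of each name. Circles are KO E14, squares J1 of either genotype and triangles WT V6.5, the open square is WT J1 replicate 2, bars are means of 4 arrays, and an asterisk marks a called gene. In 14 of the 21 genes every KO array lies above every WT array.

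Core pluripotency genes stood differently. Pou5f1, which encodes OCT4, read 12.40, 12.37, 12.27 and 12.40 in KO, against 12.48, 12.39, 12.56 and 12.50 in WT. Sox2 averaged 11.70 ± 0.19 in KO and 11.52 ± 0.01 in WT (SD, n = 4 each). The groups overlapped in both, and their differences were −0.12 (SE 0.176) and 0.18 (SE 0.405). Nanog read 12.35 and 12.42 in KO E14 and 11.61 and 11.75 in KO J1, against 12 and 10.96 in WT J1 and 10.97 and 11.06 in WT V6.5, a difference of 0.78 (SE 0.325, adjusted p = 0.28) that the line E14 led.

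Of 24 core genes 2 rose, with a median of 0.19. Dnmt3l, a cofactor of the de novo DNA methyltransferases, read 10.96, 10.84, 10.33 and 10.82 in KO, against 8.68, 7.18, 9.18 and 9.59 in WT, and rose by 2.08 (SE 0.338, adjusted p = 0.001). The other was Gdf3, a TGF-beta family ligand, which rose by 1.01 and differed by 0.76 without WT J1 replicate 2 (adjusted p = 0.06).

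Primed epiblast genes read lower in KO without any passing the threshold. All 18 differences were below 0, with a median of −0.47. In 6 genes every KO array was below every WT array, against 4.30% of all genes. Sall2 read 8.56, 8.21, 9.01 and 8.97 in KO, against 9.52, 9.97, 9.90 and 9.61 in WT (−1.06, SE 0.340, adjusted p = 0.12). The methyltransferase gene Dnmt3b read 11.02, 10.84, 11.37 and 11.35 in KO, against 12.21, 12.13, 11.99 and 11.92 in WT (−0.91, SE 0.271, adjusted p = 0.084). Both had groups that did not overlap. Fgf5, the classic marker of the primed state, differed by −0.50, Otx2 by −0.66 and Pou3f1 by −0.56. Fgf5 had averaged 8.13 in both genotypes on day 0 and averaged 10.35 in KO and 10.85 in WT on day 3, so its mean was higher on day 3 in both.

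Signalling genes that feed these states changed in few members. Of 11 genes of LIF and STAT3 signalling the kinase gene Pim1 was higher (1.14), and its KO and WT arrays overlapped (adjusted p = 0.11 without KO E14 replicate 2 and 0.12 without WT J1 replicate 2). Among 16 genes of the Nodal pathway only Gdf3 was called, and of 20 FGF ligands and feedback genes and 22 Wnt ligands and feedback genes 0 were. The ligand Bmp4 read 9.73, 10.15, 9.0 and 9.27 in KO, against 8.42, 7.73, 7.66 and 8.04 in WT, and rose by 1.58 (SE 0.285, adjusted p = 0.003). Its secreted antagonist Grem1 rose by 1.55 (SE 0.284), and these were the 2 called among 21 BMP ligands, antagonists and targets, whose median was 0.19.

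Hox genes, which give cells their position along the body axis, rose mainly at the 5′ end of the HoxD cluster. Hoxd13 read 8.79 and 8.53 in KO E14 and 9.25 and 9.11 in KO J1, against 6.68 and 7.15 in WT J1 and 6.58 and 6.70 in WT V6.5. The groups were far apart and the difference was 2.14 (SE 0.199, limma adjusted p = 5.5e-07). The nearby genes Hoxd11 and Hoxd10 rose by 1.41 (SE 0.190) and 1.37 (SE 0.194). These 3 of the 10 genes in the HoxD cluster list also passed with averaged arrays. The list median was 0.54, and 6 of the 10 had every KO array above every WT array, against 6.12% of all genes.

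No gene of the other clusters differed by as much as the 3 called HoxD genes, and most differences there had the same sign. Hoxc8 rose by 1.29 (SE 0.322) as the single call among 9 HoxC genes, all of which read higher in KO, with a median of 0.45. All 10 HoxA genes read higher in KO as well, with a median of 0.56 and 8 of them without overlap, but 0 reached 2-fold: Hoxa9 differed by 0.64 (adjusted p = 0.014) and Hoxa2 by 0.63 (adjusted p = 0.02). The 9 HoxB genes had a median of 0.16 and 0 calls, with Hoxb2 at 0.57 and Hoxb9 at 0.31. Hoxc8 was not called without KO E14 replicate 2 (adjusted p = 0.11) or 5 other single arrays.

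Of 17 homeobox genes of the TALE class, which includes Hox cofactors, 3 rose. Meis2 read 9.84, 10.03, 9.53 and 9.34 in KO, against 6.52, 7.04, 7.23 and 7.59 in WT, and Meis1 read 8.19, 8.70, 8.13 and 8.08 in KO, against 6.40, 5.97, 6.26 and 6.48 in WT. Neither gene's groups overlapped, and the rises were 2.59 (SE 0.231) and 2.00 (SE 0.234). Pknox2 rose by 1.01, and not past the threshold without KO E14 replicate 2 (adjusted p = 0.082) or WT V6.5 replicate 2 (0.057). The other 14 TALE genes were not called, and the list median was 0.11.

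Of 15 T-box genes, which encode regulators of mesoderm, heart and limb, 3 rose. Tbx20, a heart regulator, read 7.85, 8.28, 8.79 and 8.56 in KO, against 6.62, 5.91, 6.07 and 6.52 in WT (2.09, SE 0.380, adjusted p = 0.0032). Tbx15 rose by 1.87 (SE 0.284) and Tbx3 has been given above. Tbx20 was also the single call among 20 cardiac and muscle genes, whose median was 0.20. In neuroectoderm, Zic1 was the single call of 23: it read 8.36, 8.35, 8.88 and 8.68 in KO, against 6.46, 6.60, 6.62 and 6.67 in WT, and rose by 1.98 (SE 0.521, adjusted p = 0.044). That call was lost without any single array of day 3, with adjusted p from 0.06 to 0.10, although the groups did not overlap. Of 37 Gata, Pax, Lhx, Nkx and related factors 0 were called, with a median of 0.16, Pax6 at 0.99 (adjusted p = 0.55) and Lhx2 at 0.92 (adjusted p = 0.28).

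**Figure D2:**
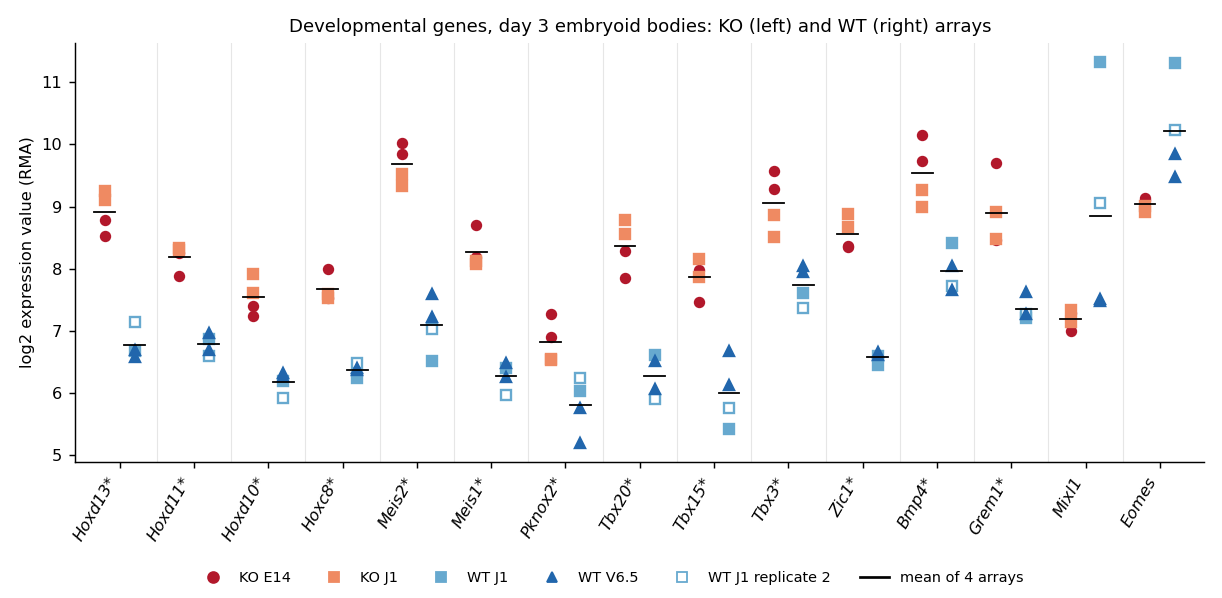
Log2 expression value (y axis) of 15 developmental genes (x axis) in day 3 embryoid bodies, with KO arrays to the left and WT arrays to the right of each name, symbols and bars as in the plot of naive genes. Asterisks mark called genes. Every KO array lies above every WT array in the genes with an asterisk and below every WT array in Mixl1 and Eomes, whose WT values are widely spread.

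No gene of the primitive streak and early mesoderm list was called, of 21, and the list median was −0.02. Mixl1, a homeobox gene of the streak, read 7.29, 7.00, 7.34 and 7.15 in KO, against 11.33 and 9.06 in WT J1 and 7.49 and 7.51 in WT V6.5. The T-box gene Eomes read 9.11, 9.14, 8.91 and 9.01 in KO, against 11.31 and 10.24 in WT J1 and 9.85 and 9.47 in WT V6.5. KO arrays were below every WT array in both, close to WT V6.5 in Mixl1 and far from WT J1. Over both lines the differences were −1.65 (SE 0.654, adjusted p = 0.25) and −1.17 (SE 0.502, adjusted p = 0.31), or −0.90 and −0.82 without WT J1 replicate 1. Between the WT lines, V6.5 minus J1 was −2.695 (SE 0.672, adjusted p = 0.04) for Mixl1 and −1.12 (SE 0.628, adjusted p = 0.41) for Eomes.

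Endoderm and trophoblast genes included some rises. Of 24 endoderm genes 2 were higher, the endocytic receptor gene Cubn (1.87, SE 0.484) and the laminin gene Lama1 (1.10, SE 0.278), with a list median of 0.44. Cubn read 6.91 and 7.19 in KO E14 and 7.45 and 8.86 in KO J1, against 5.67, 5.8, 5.63 and 5.82 in WT. Neither was called without KO E14 replicate 2 (adjusted p = 0.073 and 0.13) and other single arrays. Of 18 trophoblast genes 3 were higher, against 0.667% of all genes, with a median of 0.51. In 12 of them every KO array was above every WT array, against 6.12% of all genes. The 3 higher genes are named next. They were the galectin gene Lgals3 (1.56), the imprinted retrotransposon-derived gene Peg10 (1.40) and the transcription factor gene Tfap2c (1.18), the last of which germ cells also use. Lgals3 was not called without WT J1 replicate 2 (adjusted p = 0.072) and Tfap2c not without KO E14 replicate 2 (0.16), among other arrays. The list mean was 8.09 to 8.16 in KO arrays and 7.43 to 7.54 in WT arrays, with endoderm at 8.09 to 8.46 in KO and 7.63 to 7.81 in WT. In whole embryoid bodies, a change in the number of cells of a type and a change in RNA per cell cannot be told apart.

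Of 86 measured genes of the germ cell lists 8 were called higher, against 0.667% of all genes. In some of these lists most differences were above 0. Mael, which acts in transposon silencing by piRNAs in germ cells, read 9.68 and 9.78 in KO E14 and 9.17 and 9.61 in KO J1, against 7.17 and 6.26 in WT J1 and 6.53 and 6.84 in WT V6.5. The difference of 2.86 (SE 0.285, limma adjusted p = 1.8e-06), a fold of 7.25, was the largest rise of the comparison, and no KO array came near a WT array. Slc25a31, a testis form of the mitochondrial ADP/ATP carrier, rose by 1.49 as the other call among 29 piRNA and RNA-binding genes (median 0.22). In that list 25 differences were above 0 and 4 below. Every KO array was above every WT array in 11 of the 29, against 6.12% of all genes. The list mean was 7.18 to 7.32 in KO arrays and 6.64 to 6.85 in WT arrays.

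Of 25 meiotic chromosome genes 5 rose, against 0.667% of all genes, with a list median of 0.14. In this list 19 differences were above 0 and 6 below, and 7 genes had every KO array above every WT array. The list mean was 6.65 to 7.08 in KO arrays and 6.26 to 6.54 in WT arrays. Syce1, a protein of the synaptonemal complex, read 7.79, 8.19, 7.07 and 7.57 in KO, against 6.21, 6.20, 5.95 and 6.04 in WT, and rose by 1.55 (SE 0.228). The meiotic cohesin genes Stag3 and Smc1b rose by 1.49 (SE 0.223) and 1.23 (SE 0.309), M1ap by 1.41 and Tex11 by 1.17. Smc1b and M1ap were not called without KO E14 replicate 2 (adjusted p = 0.13 and 0.088) and 5 other single arrays. Pramel13 rose by 2.27 (SE 0.321) as the single call of 6 Pramel genes, while 0 of 18 oocyte genes and 0 of 10 two-cell-stage genes were called.

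Promoters of 2 of these genes are shown because germ cell genes repressed in ESCs often carry an E-box or an E2F-type motif near their start. Both are RefSeq sequences of 300 bases, from 250 before the start to 50 after it, on build GRCm38.p6, at chr1:166238695-166238994 on the minus strand for Mael and chr5:138280259-138280558 on the plus strand for Stag3. Capitals mark the E-box CACGTG and the E2F-type motif GGCGGGA, searched on both strands.
Mael: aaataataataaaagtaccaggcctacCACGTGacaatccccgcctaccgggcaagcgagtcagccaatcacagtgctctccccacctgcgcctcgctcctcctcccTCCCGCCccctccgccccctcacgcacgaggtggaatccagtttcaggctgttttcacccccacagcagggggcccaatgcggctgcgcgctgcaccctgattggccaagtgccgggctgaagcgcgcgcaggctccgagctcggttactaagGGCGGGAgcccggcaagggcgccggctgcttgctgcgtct
Stag3: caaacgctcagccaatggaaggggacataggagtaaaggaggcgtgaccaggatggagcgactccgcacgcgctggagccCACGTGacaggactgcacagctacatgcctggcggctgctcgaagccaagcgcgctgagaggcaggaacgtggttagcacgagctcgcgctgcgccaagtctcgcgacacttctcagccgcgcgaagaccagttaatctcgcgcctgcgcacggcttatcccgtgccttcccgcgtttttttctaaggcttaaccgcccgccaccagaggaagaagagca
The Mael window holds 1 E-box at −223 and 2 E2F-type motifs, at −143 and 10, counted from the start, with 24 CpG dinucleotides, and the Stag3 window holds 1 E-box at −170. Neither motif is in the windows of Pramel13 and Syce1. Of all 32851 promoters in the table, 7.2% hold the E-box and 11.3% the E2F-type motif. Among the 15563 tested genes with a promoter the shares were 9.5% and 18.1%, and among 60 uncalled genes of the germ cell lists 25% and 15%. Among 99 higher genes with a promoter they were 19.2% and 25.3%, and among 9 lower ones 11.1% and 0.0%. Only 78.1% of the tested genes and 74.4% of the higher ones matched a promoter, and just 7 called genes of the germ cell lists did. Of these 7, 3 held the E-box and 3 the E2F-type motif. They are too few for the purpose, so a comparison of germ cell promoter sets is void. No difference between these shares was tested.

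Apart from Eed itself, the deepest falls lay in 1 imprinted region. In the Dlk1 to Dio3 region of chromosome 12, the maternal chromosome expresses long noncoding RNAs and many microRNAs, and the paternal one Dlk1, Rtl1 and Dio3. Meg3, the first of the maternal RNAs, read 7.19 and 6.93 in KO E14 and 6.94 and 7.22 in KO J1, against 10.78 and 11.01 in WT J1 and 11.15 and 11.18 in WT V6.5. Rian, a host of small nucleolar RNAs, read 5.06, 5.46, 5.21 and 5.41 in KO, against 8.17, 8.93, 8.61 and 8.85 in WT. Both showed 2 tight groups far apart, with differences of −3.96 (SE 0.244, limma adjusted p = 3.3e-10) and −3.35 (SE 0.311).

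DQ267102 fell by 4.85 on the log2 scale, the largest change of the comparison, and its neighbour DQ267101 fell by 1.6. Thus all 4 measured long noncoding RNAs of the region were lower, with a median of −3.66, and all 4 were also lower with averaged arrays. Among the 5 protein-coding genes 0 were called: Dlk1 read 8.74, 8.37, 8.69 and 8.90 in KO, against 8.52, 8.73, 8.44 and 8.55 in WT, and differed by 0.12, with overlapping groups. Rtl1 differed by −0.36 and Dio3 by 0.78, with every KO array above every WT array in Dio3 (adjusted p = 0.34).

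Of 40 microRNA genes of the region, 39 read lower in KO and 4 were called lower, with a median of −0.52. The probe sets read the precursor or its host transcript, not mature microRNAs, and most of the genes are near the low end of the scale. Mir380 read 3.34, 3.29, 3.63 and 3.47 in KO, against 4.01, 5.49, 5.19 and 6.19 in WT, and Mir134 read 7.49, 7.18, 7.45 and 7.14 in KO, against 8.43, 9.0, 8.24 and 8.30 in WT. Groups did not overlap in either, with differences of −1.79 (SE 0.339) and −1.18 (SE 0.224). Mir382 and Mir377 fell by 2.03 and 1.96 on the log2 scale, and Mir382 differed between the WT lines, with 5.25 and 5.14 in WT J1 and 6.82 and 6.91 in WT V6.5. Mir382 was not called without KO E14 replicate 2 (adjusted p = 0.052) or WT V6.5 replicate 1 (0.051), and Mir134 lay just under 2-fold without WT J1 replicate 2. The 18 microRNA genes with a WT mean of 6 or more had a median of −0.40 and the 22 dimmer ones −0.57. In 22 of the 40 genes every KO array was below every WT array, against 4.30% of all genes.

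The mature microRNAs of the 4 called genes are shown to name the seeds they carry. They are RefSeq sequences on the plus strand of GRCm38.p6, written 5′ to 3′ with the seed (bases 2 to 8) in capitals, and lie at chr12:109711806-109711827, chr12:109711842-109711863, chr12:109733781-109733802, chr12:109733819-109733840, chr12:109734145-109734166, chr12:109734184-109734203, chr12:109740515-109740536 and chr12:109740553-109740574 in the order given.
miR-380-5p: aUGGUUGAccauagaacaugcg
miR-380-3p: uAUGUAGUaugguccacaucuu
miR-382-5p: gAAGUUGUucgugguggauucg
miR-382-3p: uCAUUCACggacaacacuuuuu
miR-134-5p: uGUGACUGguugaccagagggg
miR-134-3p: cUGUGGGCcaccuagucacc
miR-377-5p: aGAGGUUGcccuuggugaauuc
miR-377-3p: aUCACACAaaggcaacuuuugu
No 2 of these 8 share a seed. In the RefSeq table, miR-134-3p shares its seed with miR-3620-5p and miR-377-5p with miR-672-5p, and the other 6 seeds occur once.

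**Figure D3:**
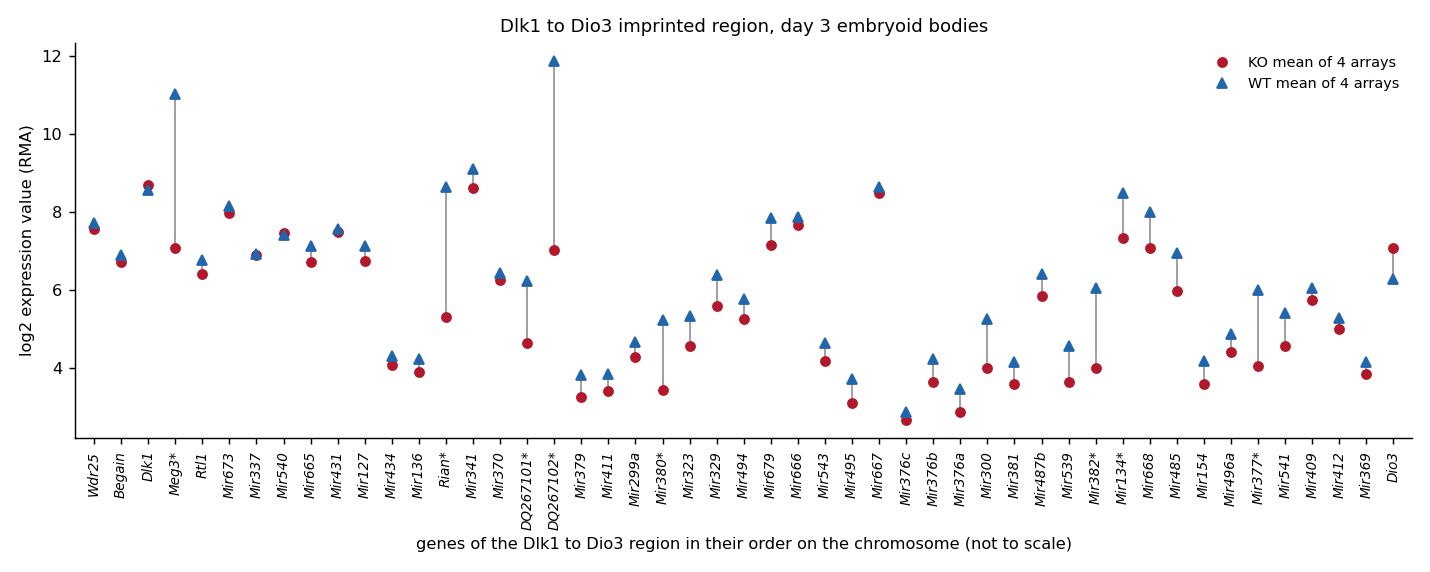
Mean log2 expression value (y axis) of KO (circles) and WT (triangles) day 3 arrays, n = 4 each, for the measured genes of the Dlk1 to Dio3 region in their order on the chromosome (x axis, not to scale). Lines join the 2 means of a gene, asterisks mark called genes, and levels of different genes are not comparable. The gaps are widest at Meg3, Rian and DQ267102, whereas Dlk1 and Dio3 do not read lower in KO.

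Of 33 measured imprinted genes elsewhere, 6 rose and 1 fell, with a median of 0.37. Igf2, a paternally expressed growth factor, read 9.68 and 10.36 in KO E14 and 10.86 and 10.61 in KO J1, against 8.13 and 8.39 in WT J1 and 7.64 and 7.89 in WT V6.5. The groups did not overlap, and the rise was 2.36 (SE 0.264, limma adjusted p = 1.1e-05), a fold of 5.15. Sfmbt2, a Polycomb-related gene, rose by 1.66, the zinc finger gene Plagl1 by 1.58 and Peg10 by 1.40, while Mest and Peg3 rose by 1.06 and 1.01. Nnat, a paternally expressed gene of the brain, read 9.51, 9.56, 9.23 and 9.40 in KO, against 11.43, 11.26, 11.03 and 11.03 in WT, and fell by 1.76 on the log2 scale (SE 0.384, adjusted p = 0.014). With averaged arrays Igf2 alone of these 7 was called. Plagl1 (adjusted p = 0.12), Peg3 (0.069) and Mest (0.061) were not called without KO E14 replicate 2. Without WT J1 replicate 2, 4 were higher, and Plagl1 (adjusted p = 0.13) and Mest (0.067) were not.

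Other Polycomb, chromatin and cell cycle genes were called in single members. Bmi1, a PRC1 subunit and one of 22 measured, read 8.66, 8.93, 8.87 and 8.82 in KO, against 6.96, 7.42, 7.44 and 7.46 in WT, and rose by 1.5 (SE 0.197). Cdkn2a, the locus of the cell cycle inhibitors p16 and ARF and a known Polycomb target, read 8.59, 8.35, 8.72 and 8.53 in KO, against 7.21, 7.23, 7.34 and 7.37 in WT, and rose by 1.26 (SE 0.210). The cyclin gene Ccnd2 read 10.91, 10.95, 10.34 and 10.23 in KO, against 9.33, 8.91, 8.91 and 8.66 in WT, and rose by 1.66 (SE 0.212). The groups were apart in all of these, and each was a single call, of 6 CDK inhibitors and of 30 cell cycle genes for Cdkn2a and Ccnd2. Of the 6 CDK inhibitors, 4 had every KO array above every WT array, against 6.12% of all genes, and 2 had differences below 0. Of the 22 PRC1 genes, 14 differences were above 0 and 8 below.

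Cdkn1c differed by 0.66 (SE 0.333, adjusted p = 0.43). Kdm6b, a demethylase of the PRC2 mark, read 8.34, 8.56, 8.38 and 8.43 in KO, against 9.26, 9.35, 9.46 and 9.15 in WT, a difference of −0.87 (SE 0.134, adjusted p = 0.00056) that stayed under 2-fold, and 0 of 18 demethylase and trithorax genes were called. Of 8 PRC2 accessory genes 0 were called, Phf19 differing by 0.62 and Jarid2 by 0.36. All 8 differences were above 0, with a list mean of 8.96 to 9.18 in KO arrays and 8.79 to 8.85 in WT arrays.

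Lists with at most 1 call completed the picture. Gadd45b (1.28) was called among 16 p53 targets, Cldn4 (1.05) among 22 genes of the epithelial to mesenchymal transition, Ifitm1 (1.39) among 19 interferon response genes and Uba1y (1.02) among 8 Y-linked genes. Cldn4 and Uba1y fell under 2-fold without WT J1 replicate 2, at 0.85 and 0.90. No member was called among 24 blood and endothelial genes, 21 glycolysis and hypoxia genes, 18 stress genes or 5 genes of the X inactivation centre, where Xist differed by 0.34. The glucose transporter gene Slc2a3 was 0.99 higher, just under 2-fold (adjusted p = 5.8e-05). Proteasome subunits, a list of housekeeping genes, had 0 of 31 called and a median of −0.12. In all, 61 of the 151 called genes stood in at least 1 of the 46 lists and 90 in none. Some, such as Dnmt3l, Gdf3 and Tbx20, were counted under more than 1 list.

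Among the largest rises outside the lists were Srgn, the proteoglycan of secretory granules (2.85, SE 0.706), AU015836 (2.37), the membrane protein gene Emp1 (2.29) and the surface peptidase gene Mme (2.19). Emp1 read 9.29, 9.82, 8.77 and 9.25 in KO, against 7.09, 7.09, 6.81 and 6.98 in WT, with nothing between the groups. Fmr1nb and AU018091 rose by 1.92 each, and the zinc finger genes Zfp980 and Zfp640 by 1.94 and 1.89. Falls outside the lists included the sulfotransferase gene Chst1, the semaphorin gene Sema6a and the phospholipase gene Plce1, by 1.56, 1.43 and 1.43 on the log2 scale. Srgn (adjusted p = 0.11), Fmr1nb (0.098), Zfp640 (0.11), Plce1 (0.09) and Sema6a (0.052) were not called without KO E14 replicate 2. Called neighbours on a chromosome that changed the same way included Triml1 (1.27), Triml2 (1.69) and Zfp42, and Zfp980 and Zfp600 (1.34, adjusted p = 0.13 without KO E14 replicate 2). The others, given above, were Hoxd11 with Hoxd10, DQ267101 with DQ267102 and Mir382 with Mir134.

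The pairs of clones that share no array allow the comparison to be read within line J1. J1 KO against J1 WT gave 200 genes (1.00%), 148 higher and 52 lower, which became 73 without KO J1 replicate 2, 82 without WT J1 replicate 2 and 335 without WT J1 replicate 1. E14 KO against V6.5 WT gave 346 (1.74%), 265 higher and 81 lower. The pairs shared 87 genes in the same direction, with all arrays used, 43.5% of the first and 25.1% of the second, and 0 were called in opposite directions. The differences correlated across genes at r = 0.39, where genes are not independent replicates. All 87 were among the 151, whose equal sign in both pairs the choice of called genes largely fixes.

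The size differed between the pairs for some genes. Mael was 2.67 higher in J1 and 3.04 higher in E14 KO than in V6.5 WT, and Meis2 2.65 and 2.52. Fmr1nb read 9.17, 9.02, 9.05 and 9.11 in KO, against 8.55 and 8.21 in WT J1 and 6.0 and 5.88 in WT V6.5, so its difference was 0.70 in J1 (adjusted p = 0.059) and 3.15 in the other pair. The opposite held for Zfp640, at 2.86 in J1 and 0.93 in the other pair (adjusted p = 0.23). Plce1 read 6.96, 7.29, 7.16 and 7.10 in KO, against 7.44 and 7.99 in WT J1 and 9.40 in both WT V6.5 arrays.

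**Figure D4:**
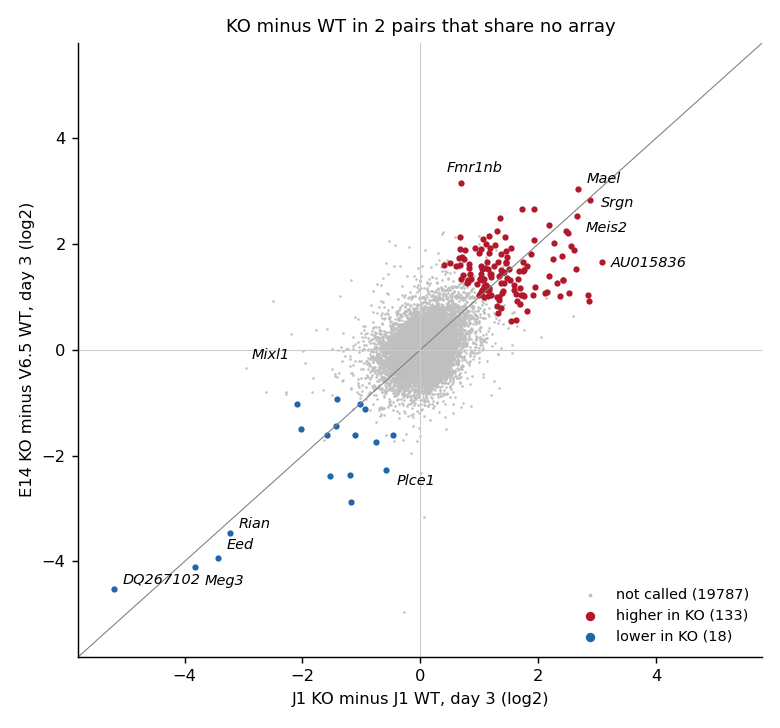
KO minus WT on the log2 scale in day 3 embryoid bodies for 19938 genes, with J1 KO minus J1 WT on the x axis and E14 KO minus V6.5 WT on the y axis. Red points are the 133 genes called higher and blue points the 18 called lower over all arrays, grey points the rest, and the line marks equality. Mael, Srgn and Meis2 lie near the line, Fmr1nb and Plce1 far from it, and Mixl1 has a large difference in the J1 pair alone.

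Between the lines of a genotype, 127 genes differed in WT (V6.5 against J1, 0.637%) and 9 in KO (E14 against J1, 0.0451%; 1524 at an unadjusted p under 0.05). Of the 151 genes, 15 differed between the WT lines, among them Fmr1nb, Zfp640, Plce1, Mir382, Dnmt3l, Esrrb and Chst1, and 0 between the KO lines. The largest gaps between the KO lines among called genes were in AU018091 (E14 higher by 1.37, adjusted p = 0.067), Cubn (E14 lower, −1.10), Prdm14 (1.06), Tfap2c (1.01) and Mmp3 (0.87), of which Mmp3 was not called over both genotypes without KO E14 replicate 2 (adjusted p = 0.092). With the arrays of a clone and day averaged, 43 genes were called (0.216%), all among the 151, and without WT J1 replicate 2 there were 111 (0.557%), of which 106 were among them. Of the 151, 88 were called whichever single array of day 3 was left out.

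Set beside the other days, most differences of day 3 were not called in ESCs and were called again on day 7. On day 0, 0.461% of genes were higher and 0.0903% lower, and on day 7 3.08% and 1.28%. The 2 WT J1 arrays of day 7 were less alike than other repeat arrays, with a correlation of 0.962. Between them 1256 genes were at least 2-fold apart, against 163 in KO E14, 58 in KO J1 and 90 in WT V6.5 on that day. They enter every day 7 result and the shared spread of the model. Of the 133 genes higher on day 3, 36 were also higher on day 0, which is 27.1% of the day 3 list and 39.1% of the day 0 list, and 93 were also higher on day 7, which is 69.9% of the day 3 list and 15.1% of the day 7 list. Of the 18 lower genes, 8 were lower on day 0 and 11 on day 7, and these 8 were lower on all 3 days. There were 30 genes higher on day 3 and called in neither direction on the other days.

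In 10 genes (0.0502%) the genotypes differed in their change from day 0 to day 3, with 1066 at an unadjusted p under 0.05 and 0 called with averaged arrays. Ifitm1 averaged 12.43 in KO and 12.61 in WT on day 0 and 12.75 in KO and 11.37 in WT on day 3, a difference of changes of 1.57 (SE 0.265, adjusted p = 0.015). The semaphorin receptor gene Nrp2 averaged 9.32 in KO and 9.28 in WT on day 0 and 9.52 in KO and 7.83 in WT on day 3 (1.65, SE 0.325, adjusted p = 0.049). In both the WT mean was lower on day 3 than on day 0 and the KO mean was not. For Meg3 the gap widened, with 8.03 in KO and 10.23 in WT on day 0 and 7.07 in KO and 11.03 in WT on day 3 (−1.76, SE 0.293, adjusted p = 0.015).

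Others of the 10 included gaps that closed or narrowed. Krt17 averaged 7.02 in KO and 8.36 in WT on day 0, against 6.80 in KO and 6.60 in WT on day 3 (1.54), and the netrin gene Ntn1 and Gna14 likewise had differences of changes of 1.58 and 1.14 with day 3 differences of 0.10 and 0.18. Khdc3, an oocyte and ESC gene, averaged 9.16 in KO and 7.17 in WT on day 0 and 7.12 in KO and 6.71 in WT on day 3 (−1.58, SE 0.230), and Tex13b showed −1.25. The cytokine gene Ltb (1.16) and the chromatin organiser gene Satb1 (−1.13) made up the rest, and their gaps were not closed on day 3. With any 1 array left out, Ltb differed by 0.72 to 0.92 on day 3 and Satb1 by −0.58 to −0.45.

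From day 3 to day 7 the difference between the genotypes changed upward in 1.36% of genes and downward in 1.20%. Of the genes higher on day 3, 23 had a gap that widened and 20 one that narrowed or turned. Widening gaps were frequent among pluripotency genes: 9 of 21 naive and 14 of 24 core genes had a change that was higher in KO, whereas 0 of either had one from day 0 to day 3. Zfp42 averaged 10.12 in KO and 6.01 in WT on day 7, and Pou5f1, level on day 3, had a difference of changes of 3.24.

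Among the narrowing gaps were genes whose WT means were higher on day 7 than on day 3. Igf2 averaged 12.44 in KO and 12.65 in WT on day 7, Meis1 9.48 in KO and 9.29 in WT, and Meis2 11.03 in KO and 10.49 in WT, so that differences of 2.36, 2.00 and 2.59 on day 3 became −0.22, 0.19 and 0.53. Peg10, Peg3, Mest, Plagl1, Bmp4 and Hoxc8 narrowed too, with differences of changes from −2.17 to −1.15. Tbx20 turned round, with 7.68 in KO and 10.47 in WT on day 7 (a difference of changes of −4.88, SE 0.456). The other genes called in opposite directions on the 2 days were Pknox2, the guidance gene Slit2 and the galactosyltransferase gene Ugt8a. On day 3 Slit2 was not called without KO E14 replicate 2 (adjusted p = 0.13) and Ugt8a differed by −0.97 without WT J1 replicate 2.

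**Figure D5:**
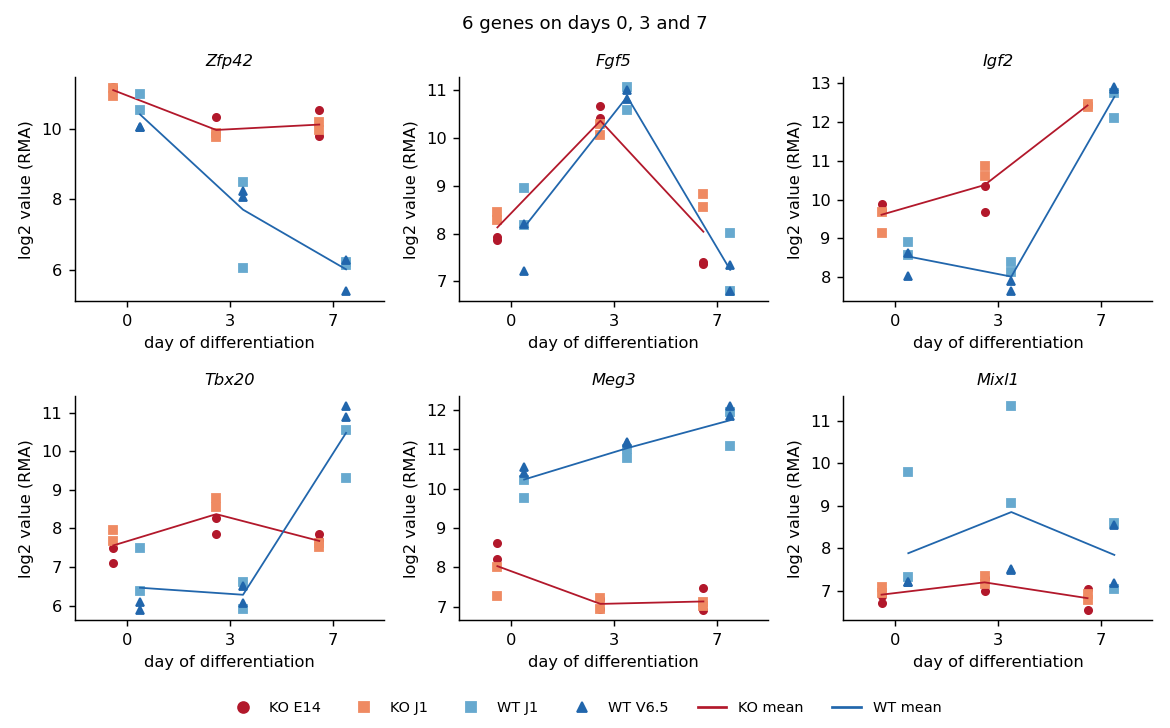
Log2 expression value (y axis) of 6 genes on days 0, 3 and 7 of differentiation (x axis), with KO arrays to the left and WT arrays to the right of each day and lines through the means of 4 arrays. Circles are KO E14, squares J1 of either genotype and triangles WT V6.5. On day 3 the genotypes are apart in Zfp42, Igf2, Tbx20 and Meg3, and on day 7 they meet in Igf2 and have crossed in Tbx20.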

How the data were processed

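The 8 day 3 arrays were grouped by title, and the 8 arrays of day 0 and 8 of day 7 entered the same model. Each deposited value is the log2 expression of a probe set. Per the submitters' processing notes, the authors used RMA in Affymetrix Power Tools. RMA subtracts background, brings arrays to 1 distribution by quantiles and combines probes, so a change of total RNA per cell is removed and differences near background are compressed. The build, annotation and tool versions were not given in the sources used here.

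Of 35556 probe sets, 23410 were listed in the annotation used, of which 21789 had 1 gene symbol, 1621 had several and were left out, and 21698 matched RefSeq by gene ID. The other 12146 were unnamed here. Where a gene had more than 1 probe set (999 genes), that of the highest mean on the 24 arrays was kept, which gave 19938 genes. The reported tests used no filter on low values.

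Genes were tested with limma 3.58.1 and statmod 1.5.0 in R 4.3.3, in a model of all 24 arrays with 6 means, 1 for each genotype and day, in which the clone was a random block (correlation 0.161, 18 residual degrees of freedom). Pairs of clones and lines came from 12 clone-by-day means without a block (12 residual degrees of freedom), whose p-values measure the spread between repeat arrays. Adjusted p-values are limma's, by Benjamini-Hochberg over all genes of a comparison. SE is the model's and SD is over 4 arrays. The code was tested on simulated data. Gene lists (46 lists with 761 distinct measured members and 90 not measured) are described by counts and medians, with no set test. T and H19 were not analysed here. The members and lists were chosen with earlier results of these data known. Named genes were the 20 largest rises, the 12 largest falls, up to 4 called members of each list or the 2 largest uncalled ones, all genes called for the change to day 3, the 5 called genes most apart between KO clones, and fixed markers. The genes Triml1, Triml2, Zfp600, Slit2, Ugt8a, Col1a2, Col3a1, Thy1, Postn, Otx2, Pou3f1, Esrrb, Dppa5a, Klf5, Nr0b1, Tfcp2l1, Klf2, Tex11, Mest and Peg3 and those of the closing observations were added after their values were seen. Alternatives changed the block, the normalization, the filter, the probe set rule, the fold minimum and the arrays used. Sequences are from RefSeq tables of GRCm38.p6. No coordinates of array probes are given because their build is not stated.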

Additional observations from a re-analysis of the deposited data

Results flagged for a closer look

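Of 298 groups of 4 arrays, a gene's KO or WT values on day 3, 19 held an array apart from the other 3 by more than Dixon's critical value for 4 values, a share of the group's range, as did 1 of 12 list means. About 1 in 20 groups would do so by chance. WT J1 replicate 1 stood apart in Bmi1 (0.906 of the range, low at 6.96), Nanog (0.902 of the range, high at 12) and Parp12 (0.849 of the range, high at 9.70). KO E14 replicate 1 stood apart in Cdkn1c (0.838 of the range, high at 9.32). KO J1 replicate 2 stood apart in Cldn4 (0.843 of the range, high at 10.64) and Pax6 (0.9 of the range, high at 8.34). WT J1 replicate 2 stood apart in Fbxo15 (0.841 of the range, low at 6.54), Ifitm1 (0.844 of the range, low at 10.41), Jarid2 (0.905 of the range, low at 11.46), Ntn1 (0.839 of the range, low at 7.61) and Thy1 (0.881 of the range, high at 8.55). WT V6.5 replicate 2 stood apart in Grem1 (0.836 of the range, high at 7.63). KO E14 replicate 2 stood apart in Hoxc8 (0.859 of the range, high at 8.0), Hoxd11 (0.831 of the range, low at 7.88), Psma2 (0.905 of the range, low at 10.48), Slit2 (0.869 of the range, high at 8.62) and the trophoblast list mean (0.857 of the range, high at 8.16). KO J1 replicate 1 stood apart in Ooep (0.843 of the range, low at 8.78), Pramel13 (0.839 of the range, low at 8.56) and Sohlh2 (0.841 of the range, low at 7.15).

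KO and WT differed in their change from day 0 to day 3, by the model's own test of that difference, in 10 genes: on the log2 scale Gna14 (1.14), Ifitm1 (1.57), Khdc3 (−1.58), Krt17 (1.54), Ltb (1.16), Meg3 (−1.76), Nrp2 (1.65), Ntn1 (1.58), Satb1 (−1.13) and Tex13b (−1.25). A positive value means that the change was more upward in KO.

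From day 3 to day 7 the change differed in the same test for further named genes. It was more upward in KO for Nr0b1 (3.40), Pou5f1 (3.24), Nanog (2.78), Zfp980 (2.75), Dppa5a (2.66), Ugt8a (2.41), Zfp640 (2.32), Sox2 (2.27), Gdf3 (2.23), Fbxo15 (2.19), Dnmt3l (2.15), Triml2 (2.09), Esrrb (1.97), Fgf4 (1.95), Ooep (1.90), AU018091 (1.86), Zfp42 (1.85), Morc1 (1.78), Tcl1 (1.58), Sema6a (1.5), Chst1 (1.46), Zfp600 (1.37), Dppa3 (1.33), Dnmt3b (1.27), Triml1 (1.19), Sohlh2 (1.17) and Thy1 (1.02). It was more downward in KO for Tbx20 (−4.88), Igf2 (−2.58), Slit2 (−2.49), Pknox2 (−2.24), Plagl1 (−2.17), Meis2 (−2.05), Bmp4 (−1.93), Thbs1 (−1.91), Nrp2 (−1.88), Hoxc8 (−1.82), Meis1 (−1.81), Hoxb2 (−1.76), Fgf10 (−1.67), Col1a1 (−1.63), Wnt5a (−1.63), Peg10 (−1.28), Zc3hav1 (−1.27), Peg3 (−1.25), Col1a2 (−1.24) and Mest (−1.15).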

How the results depend on the processing

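The 151 genes called on day 3 became 161 without the clone block, 183 with the day 3 arrays alone, 148 with a filter on low values (6 or more in at least 4 arrays), 149 with quantile normalization repeated, 143 with arrays centred on their median, 152 with probe sets averaged and 151 with a trended prior. They moved to 43 with averaged arrays, to 434 without a fold minimum, to 365 with a 1.5-fold minimum, to 53 without the clone KO E14 and to 247 without the clone WT J1. The counts were 169 without KO J1 and 212 without WT V6.5, and leaving out 1 array gave 101 to 161. A block of clone and day, an alternative chosen after seeing the data, gave 137. The numbers 1 and 2 were not taken to pair the arrays, since deviations of same-numbered arrays correlated above 0.1 in 3 of 6 pairs of clones: at 0.15 to 0.29 among KO E14, KO J1 and WT V6.5, and at −0.24 to −0.08 with WT J1. As a hint from the data, 6 of 8 arrays correlated best with one of their own number. A replicate block gave 143 genes on day 3, 207 in the J1 pair, 8 for the change from day 0 to day 3 and 506 for that from day 3 to day 7. The 200 genes of the J1 pair became 519 without a fold minimum and 482 with the 1.5-fold minimum, and 73 to 335 without 1 array. The 10 genes of the change from day 0 to day 3 became 5 without the clone block, 0 with averaged arrays, 15 without a fold minimum or with 1.5-fold, 1 without KO E14, 4 without KO J1, 24 without WT J1, 6 without WT V6.5, 1 with a block of clone and day and 5 to 9 without 1 array. The 511 genes of the change from day 3 to day 7 became 327 with averaged arrays, 1049 without a fold minimum, 930 with 1.5-fold, 273 without KO E14, 899 without WT J1, 145 without WT V6.5, 329 with a block of clone and day and 422 to 525 without 1 array. The causes of these shifts were not tested.

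Of 88 named genes called on day 3, 22 kept their call in all 24 alternatives, among them Eed, Meg3, Rian, DQ267102, Mael, Meis1, Meis2, Hoxd13, Igf2, Tcl1, Bmi1 and Cdkn2a. Averaged arrays and leaving out the clone KO E14 each removed 56 calls, leaving out KO E14 replicate 2 removed 30 and WT J1 replicate 2 removed 26. No called gene changed sign. Uncalled genes near 0 did, namely Col1a2 (−0.004 with centred arrays, −0.047 to 0.098 without 1 array), Col3a1 (−0.018 to 0.157, and −0.076 without WT V6.5), Suz12 (−0.079 to 0.085, 0.137 without KO J1 and 0.102 without WT J1), Col1a1 (−0.105 to 0.078, and 0.094 without WT J1), Ntn1 (−0.043 to 0.174, and −0.075 without WT J1) and Thy1 (0.031 without KO E14 and 0.018 without WT J1). Low microRNA probe sets lie near the background, where RMA compresses differences.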

Other observations

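The 4 genes that follow have known germ cell roles, stand outside the lists and were picked because they were higher in KO embryoid bodies on day 3, and other such genes were not counted. Sohlh2, a transcription factor of early germ cells, read 8.11, 8.28, 7.15 and 8.10 in KO, against 6.31, 6.33, 5.92 and 5.99 in WT, and rose by 1.77 (SE 0.259, limma adjusted p = 0.00033). Morc1, needed for transposon silencing in male germ cells, rose by 1.56 (SE 0.319), the regulator gene Prdm1 by 1.38 (SE 0.330) and Dmrt1, a gene of testis development, by 1.10 (SE 0.284). Every KO array was above every WT array in these 4 genes. Prdm1 and Dmrt1 were not called without WT J1 replicate 2 (adjusted p = 0.09 and 0.14).

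Tfap2a, Foxd1 and En2, 3 transcription factor genes outside the lists, were likewise picked after their values were seen. Tfap2a, a regulator of neural crest and surface ectoderm, read 7.75, 7.87, 7.85 and 7.77 in KO, against 6.54, 6.36, 6.22 and 6.37 in WT (1.44, SE 0.181, limma adjusted p = 6.7e-05). Foxd1 rose by 1.42 (SE 0.223) and En2, a homeobox gene of the midbrain and hindbrain, by 1.23 (SE 0.227). Both Tfap2a and Foxd1 were also called with averaged arrays. Zc3hav1 and Parp12, which encode antiviral proteins, rose by 1.43 (SE 0.281) and 1.23 (SE 0.265), beside 1 of 19 called in the interferon list. Of 739 X-linked genes 12 were higher (1.62%), against 0.667% of all genes, and Nap1l2 was lower.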
